A study of Mus musculus with 25 samples.

Results

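Phlda2 and 6 other imprinted growth genes, Cdkn1c, Slc22a18, Grb10, Mest, Peg3 and Plagl1, were followed across all groups of an array study of mouse liver in which hepatocytes lack Mcl-1, an anti-apoptotic BCL-2 family protein. The 7 genes were listed by symbol, out of 17016 symbols on the array, and were chosen by the level of Phlda2, which lay higher in knockout than in wild-type liver at 2 and 12 months. Each gene was read from its brightest probe, and together the genes have 12 of the 41174 probes. Since these values chose the genes, the knockout differences at 2 and 12 months, and at 2 months against hemizygous liver, are described without a test, as is the change of the knockout difference between the ages, which is built from them. The other comparisons share some of these arrays, and for Phlda2 those against knockout liver of 2 months are also described without a p.

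RNA from homogenates of whole liver of untreated mice was measured on 25 single-colour arrays. At 2 months there were 3 Mcl-1 knockout mice (animals 137, 64 and 69), 3 hemizygous mice (27, 28 and 30) and 2 wild-type mice (31 and 34). Tumor and matching non-tumor tissue came from 3 knockout mice of 8 months (1347, 1287 and 934) and from 4 knockout mice of 12 months (1109, 638, 702 and 793), and 3 wild-type mice (552, 641 and 1110) were 12 months old. The labels call knockout, hemizygous and wild-type mice littermates. In the knockout the deletion is confined by design to hepatocytes, so the other liver cells keep Mcl-1, and the promoter driving the recombinase is not given in the sources used here. No wild-type mouse was 8 months old. Each array is 1 tissue sample of 1 animal, and p-values measure the spread between these samples.

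Imprinted genes are expressed from one parental copy, with the choice set by DNA methylation laid down in the germ line. Many act on fetal and placental growth and are turned down after birth, and some are expressed again in regenerating or neoplastic liver. Maternally expressed genes of this set, Phlda2, Cdkn1c and Grb10, are known as growth restrainers, whereas Mest, Peg3 and Plagl1 are paternally expressed and their loss in mice reduces growth. Phlda2, Cdkn1c and Slc22a18 share a domain of distal mouse chromosome 7 whose paternal copies are silenced with the long RNA Kcnq1ot1. The arrays measure total transcript and do not separate the parental copies.

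In assembly GRCm38.p6, Phlda2 lies on chromosome 7 from 143501545 to 143503145, Slc22a18 from 143473726 to 143499334, and Cdkn1c from 143458339 to 143461059. Peg3 lies elsewhere on chromosome 7 (6703892 to 6730462), Mest on chromosome 6 (30733506 to 30748466), Grb10 on chromosome 11 (11930499 to 12037428) and Plagl1 on chromosome 10 (13090832 to 13131694). RefSeq promoter windows were matched for 6 of the 7 members. The 250 bases before a transcript start, as listed in the RefSeq promoter table, are printed for Phlda2, for its closest neighbour Slc22a18, and for Grb10 and Mest (1 of their windows each), the members whose knockout levels lay above wild type together with Phlda2 at 2 and 12 months. These starts lie inside the full spans given above, so the Phlda2 and Mest windows fall wholly within their gene's span and the other windows overlap its end in part. Capitals mark 3 motifs searched on both strands, which are TATAAA (the core of a TATA box), then CCAAT (the core of a CAAT box) and also GGGCGG (a GC box). Different motifs do not overlap in these windows, while matches of the GC box overlap each other in Grb10. The windows are chr7:143502525-143502774 (minus strand), chr7:143473539-143473788 (plus strand), chr11:12037421-12037670 (minus strand) and chr6:30737800-30738049 (plus strand).
Phlda2: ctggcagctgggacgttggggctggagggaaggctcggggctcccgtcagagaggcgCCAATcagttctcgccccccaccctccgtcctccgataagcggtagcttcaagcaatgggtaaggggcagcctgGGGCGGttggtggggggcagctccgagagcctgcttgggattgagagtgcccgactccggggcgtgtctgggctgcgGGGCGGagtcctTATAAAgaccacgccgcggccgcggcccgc
Slc22a18: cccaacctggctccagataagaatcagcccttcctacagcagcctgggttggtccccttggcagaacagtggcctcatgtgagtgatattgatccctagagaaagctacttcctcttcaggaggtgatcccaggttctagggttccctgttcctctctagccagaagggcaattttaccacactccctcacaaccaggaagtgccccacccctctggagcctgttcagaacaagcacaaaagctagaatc
Grb10: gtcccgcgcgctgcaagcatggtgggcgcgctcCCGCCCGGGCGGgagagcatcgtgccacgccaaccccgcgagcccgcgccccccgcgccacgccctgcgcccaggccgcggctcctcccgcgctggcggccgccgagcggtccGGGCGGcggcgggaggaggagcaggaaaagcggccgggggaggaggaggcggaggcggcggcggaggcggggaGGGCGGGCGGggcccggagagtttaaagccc
Mest: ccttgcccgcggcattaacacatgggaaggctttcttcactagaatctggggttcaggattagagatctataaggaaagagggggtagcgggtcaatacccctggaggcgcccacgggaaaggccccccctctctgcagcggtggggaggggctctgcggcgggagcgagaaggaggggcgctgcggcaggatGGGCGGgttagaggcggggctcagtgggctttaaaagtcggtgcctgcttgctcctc

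The Phlda2 window held the TATA motif 1 time, the CAAT motif 1 time and the GC box 2 times, and its TATA motif began 30 bases before the start. Of all 32851 RefSeq windows of this length 12.4% held the TATA motif, 33.8% the CAAT motif and 32.7% the GC box. The Grb10 window held the GC box 5 times and the Mest window held it 1 time, and neither held the other motifs. None of these 3 motifs was found in the Slc22a18 window. GC content was 68.8% for Phlda2, 52.8% for Slc22a18, 81.2% for Grb10 and 62.4% for Mest, against a median of 52.4% over all windows. CpG dinucleotides numbered 21 for Phlda2, 0 for Slc22a18, 40 for Grb10 and 14 for Mest, against a median of 6. These matches describe the letters of the windows, and factor binding and methylation were not measured.

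On the arrays 60.2% to 84.9% of probes exceeded background clearly (well above background, by the scanner software's call), and no spot was saturated. A level is the log2 of the processed signal after subtracting the 75th percentile of its array, so that 0 is the signal at that percentile, and differences between groups are log2 differences of levels. Levels of different genes come from different probes and are not set against each other. The labels were checked on Mcl1 (chromosome 3, 95656944 to 95663179): its level was 1.45 to 2.02 in knockout liver of 2 months, 3.15 to 3.53 in hemizygous liver and 3.97 and 4.45 in wild-type liver. At 8 and 12 months its level was 1.38 to 2.87 in tumors and 1.62 to 2.97 in non-tumor knockout tissue, against 3.82 to 4.42 in wild-type liver of 12 months. Whether the Mcl1 probe lies in the deleted part is not given in the sources used here. Xist, which coats the silenced X chromosome of females, exceeded background clearly in 1 of 3 knockout (animal 69), 3 of 3 hemizygous and 1 of 2 wild-type livers at 2 months, so the sexes were not balanced. At 8 months it did so in 2 of 3 tumors and 3 of 3 non-tumor samples. The pair of animal 934 differed, at -7.46 in the tumor and -5.04 in non-tumor tissue. At 12 months Xist did so in 2 of 4 tumors and 2 of 4 non-tumor samples (animals 638 and 793 in both). It also did so in 1 of 3 wild-type livers of 12 months (641). All 7 measured hepatocyte markers were above background in every group. The arrays lay on 8 slides and were scanned on 2 days.

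Phlda2, which encodes a small pleckstrin homology domain protein that restrains placental growth, had the widest knockout difference of the 7 genes at both ages. At 2 months its levels in animals 137, 64 and 69 were -1.34, -1.24 and 0.42 in knockout liver, against -3.54, -4.43 and -4.29 in hemizygous liver and -3.64 and -3.22 in wild-type liver. Every knockout sample lay above every hemizygous and wild-type sample, and animal 69 lay above the other knockouts. The knockout difference was 2.71 (SE 0.54) against wild type, a 6.56-fold higher signal, and 3.37 (SE 0.48) against hemizygous liver. At 12 months the levels in animals 1109, 638, 702 and 793 were -2.17, -1.33, -0.51 and -1.99 in non-tumor knockout liver, against -3.90, -4.47 and -4.27 in wild-type liver. The groups again did not overlap, and the knockout difference was 2.71 (SE 0.45), or 6.56-fold. In RNA from whole liver, more cells of a type and more RNA per cell cannot be told apart.

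**Figure D1:**
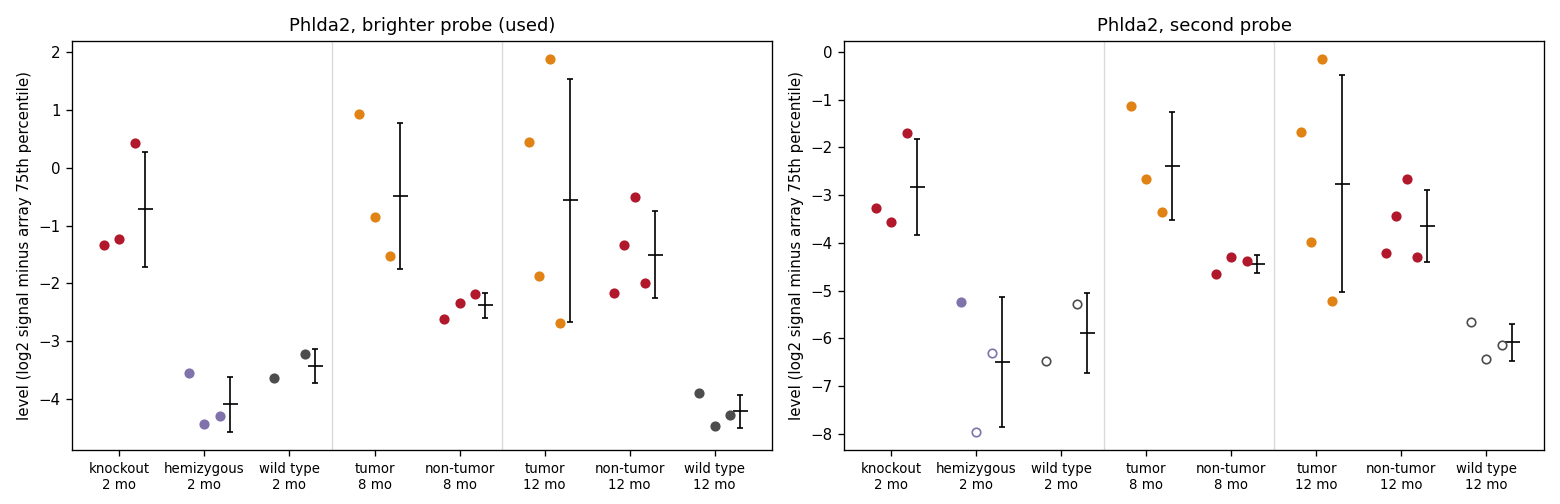
Phlda2 levels (y axis, log2 signal minus the array's 75th percentile) of each sample in 8 groups (x axis, mo = months; tumor and non-tumor are knockout tissue), for both probes of the gene. Points are samples, open where the probe was not well above background, and bars give mean and SD; all hemizygous and wild-type samples lie below all knockout samples of both tissues on the brighter probe.

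The size of the Phlda2 difference depended on background handling, and at 2 months it was smaller with slide as a block. With normexp background correction and quantile normalisation it was 1.37 at 2 months, 1.19 at 12 months and 1.53 against hemizygous liver, and it stayed positive in each alternative run. No slide held knockout and wild-type liver of 2 months together. With slide as a block they are linked only through hemizygous arrays, which leaves knockout animal 137 and hemizygous animal 30 to carry the link. The difference at 2 months was then 1.79, a value of 1 knockout. On the slide that held 1 knockout and 2 hemizygous samples the difference was 2.65. At 12 months no slide held both genotypes. With scan day as a block, which leaves animal 641 as the only wild type of 12 months, the difference was 2.97.

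The second Phlda2 probe followed the first, with r = 0.98 over the 25 arrays. It was well above background on 18 arrays and on none of the wild-type ones, so its fold is a bound, with the dim group set at its lowest measurable signal or its own, whichever is higher. The knockout signal of this probe was at least 8.24-fold higher than wild type at 2 months and at least 5.41-fold higher at 12 months. Both probes belong to the same transcripts and arrays, so this repeats the measurement and adds no sample.

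The order of Phlda2 group means, from high to low, was tumor at 8 months (-0.48, SD 1.26), tumor at 12 months (-0.56, SD 2.10), knockout at 2 months (-0.72, SD 0.99), non-tumor at 12 months (-1.50, SD 0.76), non-tumor at 8 months (-2.38, SD 0.22), wild type at 2 months (-3.43, SD 0.30), hemizygous at 2 months (-4.09, SD 0.48) and wild type at 12 months (-4.21, SD 0.29). The highest 3 means lay within their spread of each other, as did hemizygous and wild type of 12 months. The lowest non-tumor sample of 8 months, at -2.61, lay above the highest wild-type sample, at -3.22. Cycling markers moved with Phlda2 across genotypes: the mean level of 9 markers was -1.19 to 1.63 in knockout liver of 2 months, -3.28 to -2.28 in hemizygous liver and -2.60 to -2.48 in wild-type liver. At 12 months it was -1.60 to 1.07 in non-tumor knockout liver, against -4.70 to -2.25 in wild-type liver. Macrophage markers also lay higher, with 8 of 8 genes above 0 in the knockout difference at both ages and mean levels of 2.02 to 2.36 in knockout liver, against 0.72 and 0.88 in wild-type liver of 2 months, and of 1.85 to 2.86 against -0.31 to 1.61 at 12 months. Neutrophil markers lay higher in 6 of 6 genes at 2 months (median difference 2.62), with mean levels of -3.84 to -1.35 in knockout liver, against -5.90 and -5.53 in wild-type liver, where S100a8, Camp, Ngp and Retnlg were not well above background. At 12 months 4 of 6 were above 0. The mean levels of -4.06 to -1.81 in non-tumor knockout liver overlapped those of -4.76 to -1.57 in wild-type liver. In hemizygous against wild-type liver 2 of 6 neutrophil markers were above 0 (median -0.21). In wild-type liver of 12 against 2 months 6 of 6 were (median 1.95). Stellate and matrix markers lay higher in 11 of 12 genes at 2 months (median 1.21). Their mean levels were 2.26 to 2.36 in knockout liver, against 1.17 and 1.18 in wild-type liver. At 12 months 9 of 12 lay higher (median 0.57), and the ranges overlapped. In hemizygous against wild-type liver 11 of 12 were above 0 (median 0.39), and in knockout against hemizygous liver 11 of 12 (median 0.80). T and NK cell markers lay higher in 7 of 7 genes at 12 months (median 1.13), with mean levels of -2.005 to -1.31 in non-tumor knockout liver, against -4.07 to -2.40 in wild-type liver, and in 6 of 7 at 2 months (median 0.29). Cholangiocyte and progenitor markers were above 0 in 7 of 9 genes at both ages, with medians of 0.83 and 0.46. They were also above 0 in 9 of 9 genes in hemizygous against wild-type liver (median 0.58). The same held in wild-type liver of 12 against 2 months (9 of 9, median 0.51). In knockout against hemizygous liver 4 of 9 were above 0 (median -0.04). Hepatocyte markers were below 0 in 6 of 7 genes at both ages, with medians of -0.43 and -0.31. The part of these cells in the Phlda2 level was not tested.

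The other comparisons were fitted with limma over all genes, and each shares arrays with those that chose Phlda2. Hemizygous liver of 2 months showed a Phlda2 difference of -0.66 (SE 0.54, adjusted p = 0.99995) from wild type, and the groups overlapped. In wild-type liver Phlda2 differed by -0.78 between 12 and 2 months (SE 0.54, adjusted p = 0.626). Its level in non-tumor knockout liver of 8 months was -2.61, -2.34 and -2.19, below all 3 knockout livers of 2 months, with a difference of -1.66 (SE 0.48). Animal 69 weighed on that value, which was -1.09 without it. The difference between knockout liver of 12 and of 2 months was -0.78 (SE 0.45), and between 12 and 8 months it was 0.88 (SE 0.45, adjusted p = 0.911). The knockout difference at 12 months minus that at 2 months was -0.0008 (SE 0.71), a value composed of the contrasts that chose Phlda2.

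None of the 7 members passed the threshold (adjusted p under 0.05 in limma over all genes) in these comparisons. Hemizygous against wild-type liver called 0% of all genes, and an unadjusted p under 0.05 was found for 0 members and 1.21% of all genes. Wild-type liver of 12 against 2 months called 0.0407% of all genes, with 0 members and 10.6% of genes at that unadjusted p. Knockout non-tumor liver of 8 months against knockout liver of 2 months called 0%, with 16% of genes and, beside Phlda2, 1 member, Plagl1, at the unadjusted p. At 12 against 2 months in knockout liver 0.0074% were called, all lower, with 0 members and 17.2% of genes at the unadjusted p. At 12 against 8 months 0% were called, with 0 members and 5.3% of genes at the unadjusted p. The change of the knockout difference with age called 0% of all genes, with 9.63% at the unadjusted p, and nothing is read from it for the members. Single animals moved the counts over all genes. Without wild-type animal 641, the one wild type of 12 months on another slide and scan day, 1690 genes passed in wild-type liver of 12 against 2 months and 1019 in knockout liver of those ages. Without the non-tumor sample of animal 638, 556 passed in knockout liver of 8 against 2 months and 805 of 12 against 2 months, and in none of these was a member called.

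Among the growth restrainers, Grb10, an adaptor that dampens insulin and IGF receptor signalling, had higher levels in knockout liver on the probe used. At 2 months its levels were -1.09, -0.62 and -0.80 in knockout liver, against -1.05, -1.39 and -1.92 in hemizygous liver and -1.53 and -1.85 in wild-type liver. At 12 months they were 0.17, -1.20, -0.95 and -1.30 in non-tumor knockout liver, against -1.60, -1.96 and -1.42 in wild-type liver. Knockout samples lay above wild-type samples at both ages, by 0.86 (SE 0.43) at 2 months and 0.84 (SE 0.36) at 12 months, while knockout and hemizygous samples overlapped. Non-tumor knockout liver of 8 months had -0.94, -1.32 and -1.98, of which the last lay below all wild-type samples. With slide as a block, which rests on knockout animal 137 alone, the Grb10 difference at 2 months was -0.10. The mean of all 3 Grb10 probes, of which the others were dim, gave -0.23 at 2 months and -0.25 at 12 months.

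Cdkn1c, a CIP/KIP inhibitor of cyclin-dependent kinases, overlapped between knockout and wild-type liver at both ages. Its levels at 2 months were -0.82, -0.54 and 0.16 in knockout liver, against -0.41 and -0.34 in wild-type liver, a difference of -0.03 (SE 0.64). At 12 months they were 0.18, 1.37, -1.10 and -0.15 in non-tumor knockout liver, against -0.02, 0.45 and -0.92 in wild-type liver, a difference of 0.24 (SE 0.53). Animals 638 and 702 mark the ends of the non-tumor range at 12 months. In hemizygous liver of 2 months Cdkn1c had -0.145, 0.26 and 0.11, above both wild-type samples, as 8.51% of all genes were. That difference was 0.45 (SE 0.64, limma adjusted p = 0.99995). Slc22a18, a membrane transporter next to Phlda2, lay between 5.59 and 6.49 on all 25 arrays, and its knockout difference was 0.05 (SE 0.26) at 2 months and 0.02 (SE 0.22) at 12 months. Its second probe differed by -1.03 at 12 months and correlated with the first at r = 0.48 over the arrays, so the probes disagree there.

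Mest, a paternally expressed gene for a hydrolase-like protein, lay higher in knockout liver. At 2 months its levels were -0.59, -1.09 and -0.91 in knockout liver, against -1.09, -1.97 and -1.95 in hemizygous liver and -2.55 and -1.73 in wild-type liver. At 12 months they were -0.02, -0.47, -0.39 and -0.01 in non-tumor knockout liver, against -0.77, -1.45 and -2.14 in wild-type liver. Knockout and wild-type groups did not overlap, and the difference was 1.27 (SE 0.52) at 2 months and 1.23 (SE 0.44) at 12 months. Against hemizygous liver it was 0.81 (SE 0.47) with overlapping groups. Non-tumor knockout liver of 8 months had 0.33, -0.81 and -1.69, within or above the range of wild-type liver of 12 months.

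Peg3, a paternally expressed zinc finger gene, was near the detection limit, with 16 of 25 arrays well above background. Its levels at 2 months were -4.97, -4.33 and -3.02 in knockout liver, against -3.12, -3.56 and -5.17 in hemizygous liver and -4.98 and -5.75 in wild-type liver, where no array was well above background. On this probe the knockout signal was 2.39-fold higher than wild type at 2 months, a fitted difference of 1.26 (SE 0.96). The hemizygous signal was 2.66-fold higher, a fitted difference of 1.41 (SE 0.96, limma adjusted p = 0.99995). Both folds use the wild-type group's own signal, so they are bounds for background only and leave out the spread between samples. A second probe, well above background on 18 arrays, gave a knockout difference of 0.48 at 2 months, and the groups overlapped. On it wild-type animal 34 (-3.94) lay above knockout animals 137 and 64 (both -4.30). At 12 months this second probe gave -1.77. At 12 months the levels were -5.56, -3.72, -6.65 and -6.80 in non-tumor knockout liver, against -4.94, -3.05 and -3.96 in wild-type liver, with only animal 638 of the knockouts well above background. The knockout difference was -1.70 (SE 0.81) there, and its change between the ages was -2.96 (SE 1.26). With slide as a block, which rests on knockout animal 137 alone, the Peg3 difference at 2 months was -1.43. Slide and animal cannot be told apart there.

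Plagl1, a zinc finger transcription factor gene that regulates other imprinted genes, was well above background on 17 arrays. At 2 months its levels were -3.27, -3.47 and -3.46 in knockout liver, against -4.17, -3.81 and -6.02 in hemizygous liver and -6.87 and -2.81 in wild-type liver. The knockouts lay close together while the wild-type samples spread around them, and the difference of 1.45 (SE 1.07) turned to -0.58 without wild-type animal 31. Non-tumor knockout liver of 8 months had levels of -5.77, -6.90 and -7.58, none of them well above background. With the processing used, knockout liver of 2 months was at least 8.20-fold higher than that. The fitted Plagl1 difference at 8 against 2 months was -3.36 (SE 0.96, limma adjusted p = 0.155). Over the alternatives it was -3.43 to -0.59, so the fold depended on the processing. At 12 months the levels were -4.66, -5.87, -5.51 and -4.72 in non-tumor knockout liver, against -5.33, -2.79 and -5.88 in wild-type liver, where animal 641 stood above the others. The knockout difference at 12 months was -0.53 (SE 0.90), and 0.41 without that animal.

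On the probes used, knockout samples lay wholly above wild type for 4 of the 7 genes at 2 months (Phlda2, Grb10, Mest and Peg3). Of all genes 16.8% did so. On its second probe Peg3 overlapped there. At 12 months knockout samples lay wholly above wild type for 3 (Phlda2, Grb10 and Mest), where 5.09% of all genes did. Against hemizygous liver this held for 2 members (Phlda2 and Plagl1), where 15.2% of all genes did so. These contrasts chose the genes and nothing is read from the counts. The median knockout difference of the members was 1.26 at 2 months and 0.24 at 12 months, beside medians of -0.04 and -0.12 over all genes tested.

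**Figure D2:**
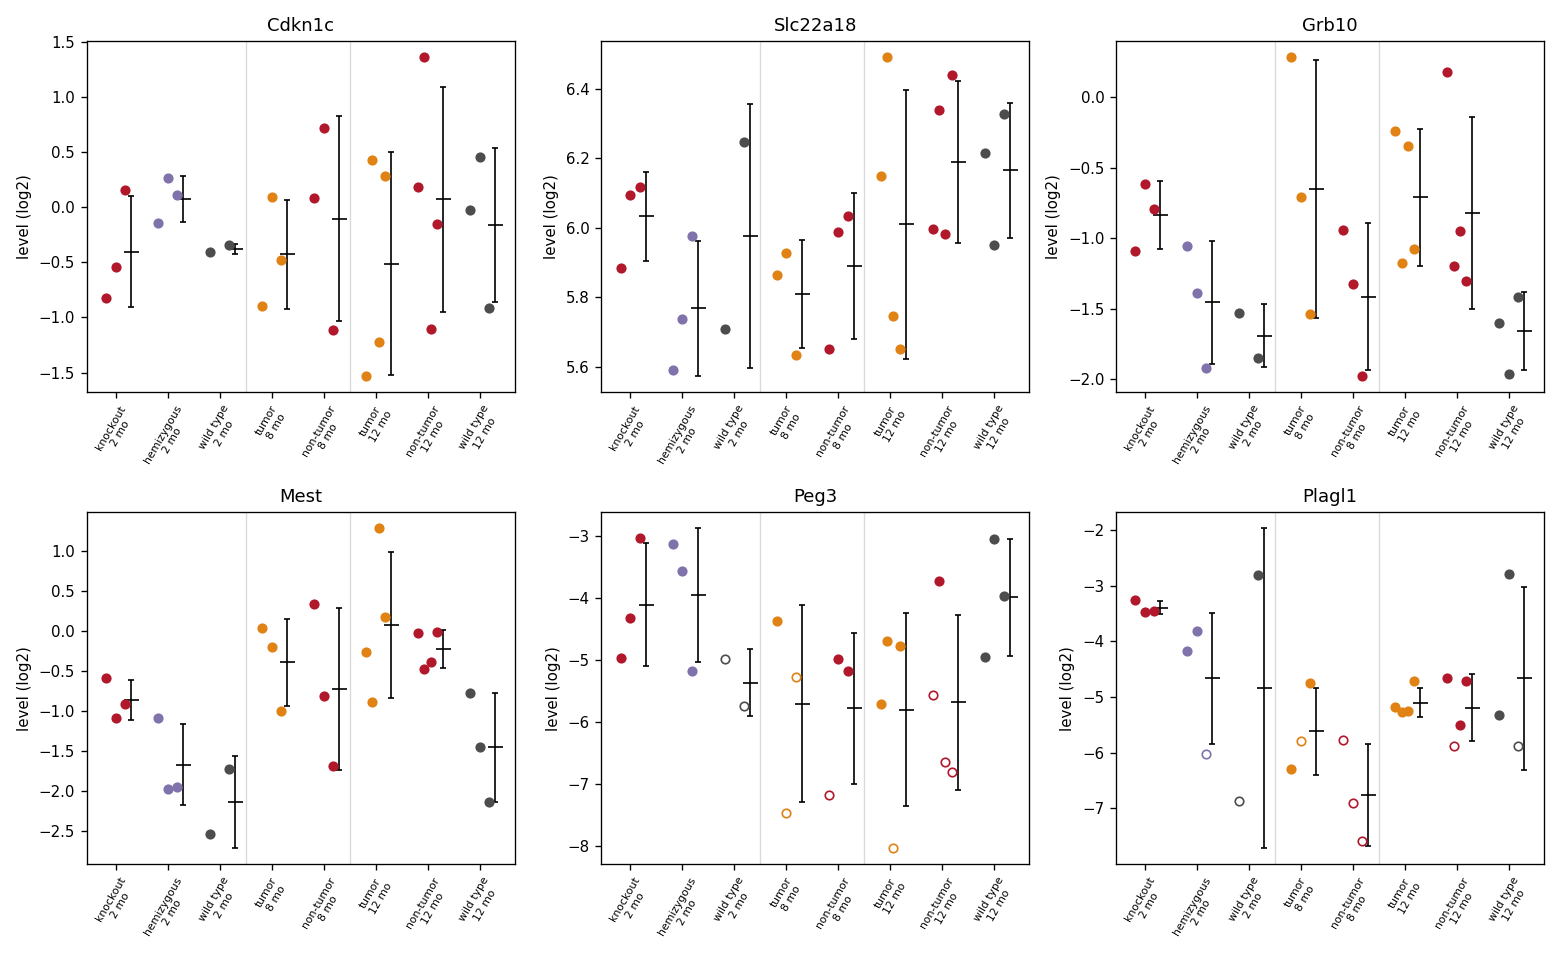
Levels (y axis, log2 signal minus the array's 75th percentile) of the other 6 members in each sample of the 8 groups (x axis, mo = months; tumor and non-tumor are knockout tissue), each panel with its own scale. Points are samples, open where not well above background, and bars give mean and SD. Grb10 and Mest lie higher in knockout than in wild-type liver at 2 and 12 months, while non-tumor tissue of 8 months reaches down among the wild-type points. Cdkn1c and Slc22a18 overlap between knockout and wild type, and Peg3 and Plagl1 hold many points that are not well above background.

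Tumor and non-tumor tissue of the same animal were compared for 7 animals. This contrast did not choose the genes, although its non-tumor arrays of 12 months were part of one that did. Phlda2 lay higher in the tumor in 5 of 7 animals, and 22.2% of all genes did so in at least 5 of 7. At 8 months its level in animals 1347, 1287 and 934 was 0.92, -0.84 and -1.53 in tumors, against -2.61, -2.34 and -2.19 in non-tumor tissue. At 12 months in animals 1109, 638, 702 and 793 it was 0.44, -1.88, 1.88 and -2.69 in tumors, against -2.17, -1.33, -0.51 and -1.99 in non-tumor tissue. The tumors of 1347, 1109 and 702 stood out with differences of 3.53, 2.62 and 2.38, whereas 638 and 793 had lower Phlda2 in the tumor, by -0.55 and -0.70. The tumor and non-tumor arrays of 1347 lay on different slides and scan days, whereas those of each other animal shared both. The mean difference was 1.35 (SE 0.52), which did not pass the threshold (limma p = 0.0299, adjusted p = 0.999, exact sign-flip permutation p = 0.0938, two-sided, n = 7 pairs). Without animal 1347 the mean Phlda2 difference was 0.98 (SE 0.48, limma adjusted p = 0.994). The change of this difference between 8 and 12 months was -0.96 (SE 1.05, adjusted p = 0.99982).

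Tumors varied more in Phlda2 than the tissue around them. The SD over the 7 animals was 1.66 in tumors and 0.72 in non-tumor tissue, with ranges of 4.57 and 2.11 on the log2 scale. This is a description, and the difference in spread was not tested.

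None of the 7 members passed in tumor against non-tumor tissue by limma, where 0% of all 24584 genes did, while 1 member (Phlda2) and 4.07% of all genes had an unadjusted p under 0.05. Of all genes, 5.95% lay higher in the tumor in at least 6 of 7 animals, 22.2% higher in at least 5 and 21.9% lower in at least 5. Grb10 lay higher in the tumor in 6 of 7 animals, by 0.39 on average (SE 0.20, limma adjusted p = 0.999), the exception being animal 1109 at -0.41. Mest was higher in 4 of 7 (0.32, SE 0.26), with animal 702 at 1.68, and Plagl1 in 5 of 7 (0.54, SE 0.38). Cdkn1c was lower in 5 of 7 tumors (-0.47, SE 0.29), with animal 1109 at -1.71. Slc22a18 (-0.14, SE 0.16) and Peg3 (-0.03, SE 0.60) had tumor values on both sides of the non-tumor ones. The change of the tumor difference with age also called 0% of genes and 0 members, with 0 members and 6.22% of genes at an unadjusted p under 0.05. The members' median tumor difference was 0.32, beside -0.02 over all genes tested. Cycling markers lay above 0 in 9 of 9 genes of the tumor difference (median 0.36). Macrophage markers did so in 1 of 8 (median -0.26) and hepatocyte markers in 0 of 7 (median -0.21). The part of these cells in the members' values was not tested.

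**Figure D3:**
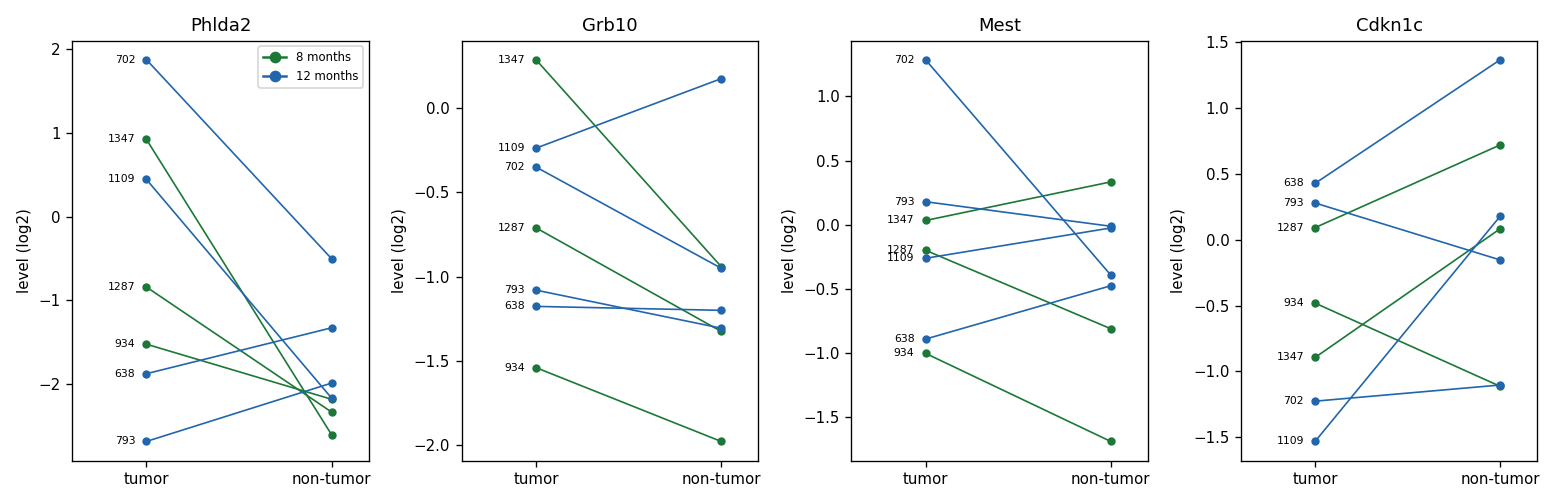
Levels (y axis, log2 signal minus the array's 75th percentile) of Phlda2, Grb10, Mest and Cdkn1c in tumor and non-tumor tissue (x axis), with 1 line per knockout animal, labelled by its number and coloured by age. Phlda2 is higher in the tumor on 5 of the 7 lines, most in animals 1347, 1109 and 702.

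The neighbours of Phlda2 in the distal chromosome 7 domain had knockout differences nearer to 0. Phlda2 was chosen by its own knockout differences, so this contrast is a description and nothing is read from it. Of 15 listed genes of the domain 14 were measured, and Kcnq1ot1 was not measured under that symbol. The 13 neighbours differed by -1.32 to 0.71 between knockout and wild type at 2 months (median -0.03, 5 above 0), and by -0.93 to 0.68 at 12 months (median -0.04, 6 above 0), beside 2.71 for Phlda2 at both ages. Slc22a18 ends 2.2 kb from Phlda2 and Nap1l4, a histone chaperone gene on the other side, lies 10.4 kb away, and Nap1l4 differed by -0.20 (SE 0.30) at 2 months and 0.18 (SE 0.25) at 12 months. Tspan32 (-1.32, SE 0.66), Cars (0.71, SE 0.30) and Osbpl5 (-0.54, SE 0.44) did not overlap between knockout and wild type at 2 months. Of all genes 16.8% lay wholly higher and 20.5% wholly lower there, and at 12 months 5.09% and 5.3%. Genes named below for not overlapping were picked by that rule, and the same shares stand beside them. In tumor against non-tumor tissue 0 of 14 genes passed, and the neighbours ranged from -0.47 for Cdkn1c to 0.41 for Dhcr7, the enzyme of the last step of cholesterol synthesis (SE 0.19, unadjusted p = 0.0609).

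**Figure D4:**
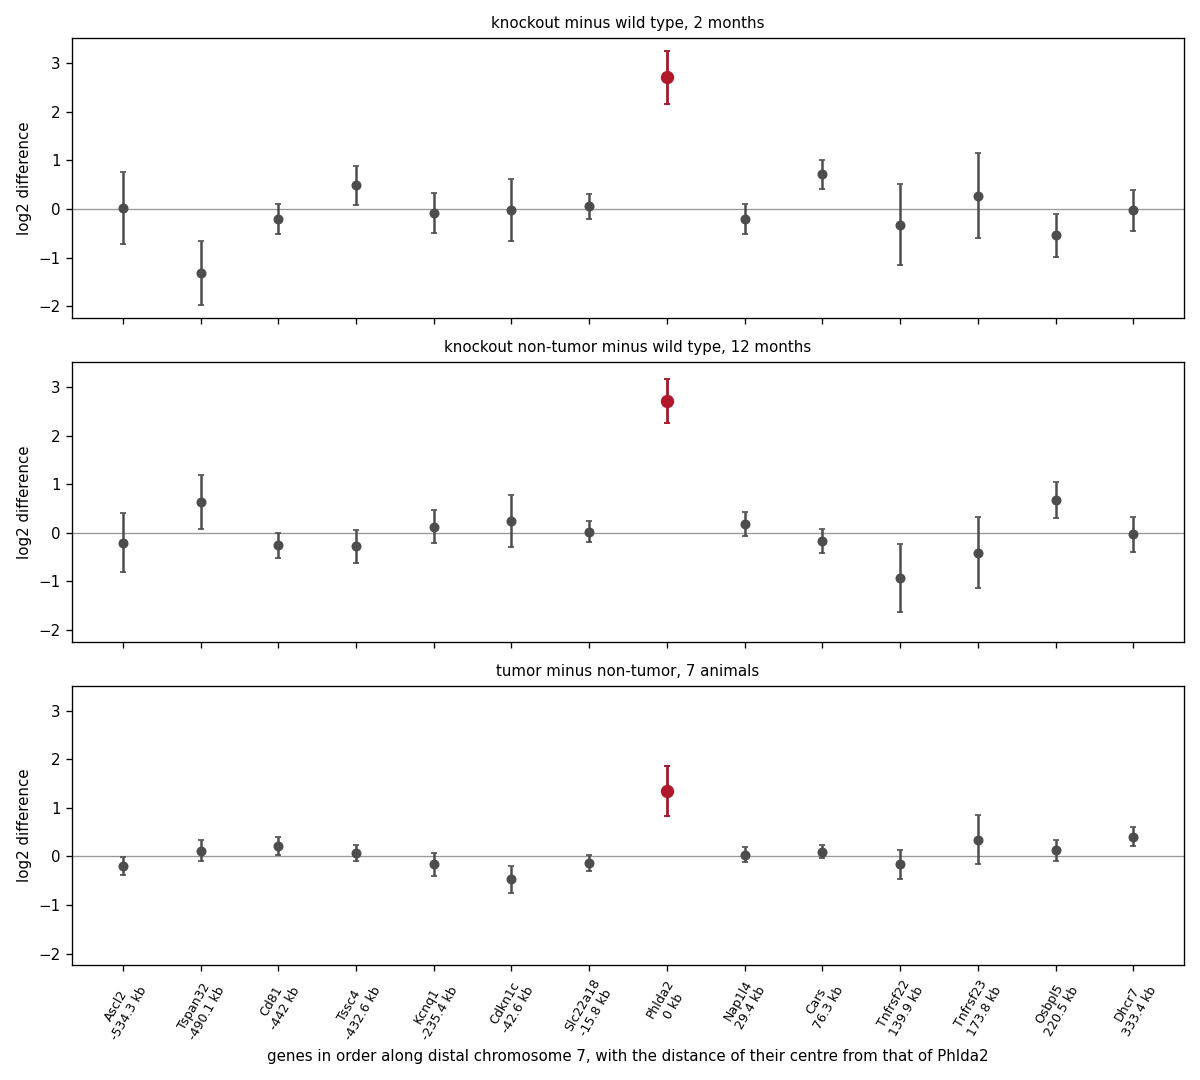
Log2 differences (y axis, with SE bars) of 14 genes in their order along distal chromosome 7, labelled with the distance of each gene's centre from that of Phlda2 in kb (x axis), for knockout minus wild type at 2 months, knockout non-tumor minus wild type at 12 months and tumor minus non-tumor. Phlda2, in red, lies at 2.71, 2.71 and 1.35, while its 13 neighbours lie between -1.32 and 0.71. Phlda2 was chosen by its knockout differences.

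The imprinted genes known as a network around Plagl1 gave 16 genes to the fits, 11 above 0 at 2 months (median knockout difference 0.58) and 12 above 0 at 12 months (median 0.37). Members of the 7 listed here are part of it. Gnas, which encodes a G protein subunit, lay lower in non-tumor knockout liver at 12 months (-0.74, SE 0.25), and Rasgrf1 was not well above background in either group at 2 months. In the tumors 0 of 16 passed, with 6 above 0, and Dlk1, a fetal liver protein gene, had -0.52 (SE 0.21, unadjusted p = 0.0359). In the H19 and Igf2 domain 2 of 3 genes were measured, without H19. Their median knockout difference from wild type was 1.01 at 2 months, with 2 of 2 above 0. At 12 months it was 0.94, with 1 above and 1 below 0. Both fetal growth factor Igf2 (-0.17, SE 0.80) and Ins2 (0.04, SE 0.37) were near 0 in tumor against non-tumor tissue.

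Of 38 other imprinted genes 27 were tested. Their knockout differences had medians of 0.03 at 2 months and -0.13 at 12 months, with 16 and 11 above 0. Ddc, the aromatic amino acid decarboxylase gene that lies beside Grb10 on chromosome 11, was 2.59 higher (SE 0.81) in knockout liver at 2 months. Cobl, an actin nucleator gene of the same region, was 1.40 higher (SE 0.34) and H13, a signal peptide peptidase gene, was -0.98 (SE 0.28) at 12 months. Dio3 (-1.45) did not overlap at 2 months, and Ampd3, well above background on 1 of 3 knockout arrays and 0 of 2 wild-type arrays, had a signal at least 1.85-fold higher in knockout liver. In tumor against non-tumor tissue 0 of 27 passed, with 13 above 0, and the smallest unadjusted p values were 0.0971 for Zrsr1 (-0.30), 0.172 for Nap1l5 (-0.69) and 0.231 for Ampd3 (0.42).

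The families of the members were looked at in the same way. Phlda3, a p53 target and relative of Phlda2, lay higher in knockout liver at 2 months (1.22, SE 0.42) and 12 months (1.13, SE 0.35) without overlap, and in 6 of 7 tumors (0.96, SE 0.40, unadjusted p = 0.0397). Phlda1 was lower in 7 of 7 tumors (-0.34, SE 0.13, limma unadjusted p = 0.0281), as were 0.826% of all genes. None of the 3 PHLDA genes passed in the tumor comparison. Among the 3 CIP/KIP inhibitors, Cdkn1a, a p53 target that halts the cell cycle, was 1.74 higher (SE 0.72) in knockout liver of 2 months without overlap and 0.78 higher in tumors (SE 0.31, 5 of 7 animals, unadjusted p = 0.0319), and 0 of 3 passed in tumors.

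In the group of Grb10 relatives and insulin receptor signalling 0 of 10 genes passed in tumors, with 5 above 0. Igfbp2, an IGF binding protein, was lower in 6 of 7 tumors (-0.72, SE 0.21, limma unadjusted p = 0.00744). Of all genes 5.98% were lower in at least 6 of 7. Igf1r had -0.57 (SE 0.28, limma unadjusted p = 0.0717). Igfbp1, a hepatocyte stress-induced IGF binding protein, was 2.58 higher (SE 1.28) in non-tumor knockout liver at 12 months without overlap. Among 9 measured genes that keep or erase DNA methylation, 0 passed in tumors and 8 were above 0. Dnmt3b, a de novo methyltransferase, was 1.91 higher (SE 0.50) in knockout liver at 2 months. Uhrf1, which brings Dnmt1 to replicated DNA, was 1.37 higher (SE 0.95) at 2 months and 2.45 higher (SE 0.79) at 12 months, and Dnmt1 was 0.72 higher (SE 0.33) at 2 months, each without overlap. In tumors Dnmt1 (0.21), Dppa3 (0.26) and Tet2 (0.26) had the smallest unadjusted p values, from 0.316 to 0.444. Hemizygous and other age contrasts called 0 genes of these lists, apart from 1 fetal liver gene, Igf2bp3, in knockout liver of 12 against 2 months. Igf2bp3 was lower at 12 months, where it was not well above background on any non-tumor knockout array.

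The genes whose levels ran most like that of Phlda2 over the 25 arrays, of 15100 candidates, were Slc16a6, a transporter (r = 0.88), Golm1, a Golgi membrane protein (r = 0.85), Slc7a7, a cationic amino acid transporter subunit (r = 0.85), and E2f2, a cell cycle transcription factor (r = 0.85). In the 7 tumors alone their r with Phlda2 was 0.96, 0.88, 0.93 and 0.84, and in the 18 other arrays 0.77, 0.76, 0.75 and 0.89. Both sets are parts of the 25 arrays that chose these genes, so high values there add no support. Golm1, for example, averaged 1.28 in knockout liver of 2 months, against -0.68 in wild-type liver, and 2.75 in tumors of 8 months, against 1.03 in non-tumor tissue. Among the members r with Phlda2 over all arrays was 0.71 for Grb10, 0.69 for Mest, -0.40 for Cdkn1c, -0.38 for Peg3, -0.08 for Plagl1 and 0.02 for Slc22a18. Mcl1 had -0.60 over all arrays, 0.49 in the 7 tumors and -0.22 in the non-tumor samples of the same animals. The samples share groups and slides, and these values describe likeness of pattern only.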

How the data were processed

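RNA from whole liver was measured on 25 single-colour arrays labelled with Cy3. Each deposited array file gives intensity per spot from Agilent Feature Extraction 10.5.1.1, background-subtracted and detrended within each array and not normalised between arrays, per the file headers. A deposited series matrix holds log2 values whose ranks follow the uncorrected median signal, and whose normalisation between arrays was not tested. Its column medians were 6.57 to 6.58. The submitters' processing notes name limma without a role.

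Spots flagged as outliers were left out, spots of a probe were averaged, and the level was the log2 processed signal after subtraction of the 75th percentile of its array, with no pseudocount. RefSeq of GRCm38.p6 named 24375 of 41174 probes (59.2%), and each gene was read from its probe of highest mean signal. limma 3.58.1 in R 4.3.3 was fitted over all genes (two-sided, Benjamini-Hochberg adjustment, threshold 0.05). One model held the 18 arrays without tumor tissue as 6 groups and kept genes well above background on at least 2 arrays. The other held 14 arrays, the tumor and non-tumor samples of 7 animals, with animal as a block, and kept genes well above background on at least 3. All 7 members passed both filters. The pairing comes from the animal numbers in the labels, and a random animal block had a correlation of 0.43. The fits were tested on simulated data. Signals limit precision near background, and the number of arrays limits it elsewhere.

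The members and gene lists were chosen with earlier results of these data known. The text names all members, Mcl1, Xist, the 5 genes most like Phlda2 among those well above background on at least 3 arrays (1 of them is not reported here), and from each list the genes past the threshold in a tested comparison, up to 3 with the smallest unadjusted p in tumor tissue, and up to 3 with the largest knockout difference among groups that do not overlap at either age. For a group without any array well above background, a fold is given as a bound: the brighter group's mean level against the dim group's mean of, per array, the lowest signal among probes well above background or the probe's own signal, whichever is higher. Such a bound concerns background only and leaves out the spread between samples. Promoter sequences are those of RefSeq (GRCm38.p6).

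Alternatives were other normalisations, the series matrix, the mean of all probes, filters, robust fits with a trend, blocks for slide or scan day, other sets of arrays, Xist as a covariate and each animal left out. The array files hold no mean signal, so normexp (offset 50) was run on the median signal.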

Additional observations from a re-analysis of the deposited data

Results flagged for a closer look

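In tumors of 12 months the Plagl1 level of animal 793 (-4.72) was apart from the other 3 tumors, at -5.17, -5.26 and -5.24, its gap to the nearest being 0.843 of the range. Chance marks about 1 in 20 groups in this way and 21 groups were looked at, so 1 such value is no pattern.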

How the results depend on the processing

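Phlda2 differences of knockout from wild type kept their sign under every alternative run and with each animal left out, from 1.37 to 2.88 at 2 months and from 1.19 to 3.16 at 12 months over the alternatives, the lowest being normexp with quantile normalisation. The tumor difference of Phlda2 was 0.92 to 1.37 over the alternatives and 0.98 to 1.69 with an animal left out. Without animal as a block the paired comparison gave the same Phlda2 difference of 1.35 (adjusted p = 0.99997) and 0 members called, so the pairing changed no call. No member was called in any tested comparison under any alternative or with an animal left out, except that fitting only the groups compared called 1 member, Plagl1, in knockout liver of 12 against 2 months (-1.80, adjusted p = 0.0294), where the SE was 0.36 in place of 0.90. The counts over all genes set aside fits with slide or scan day as a fixed block, since these left 1 animal in some groups. Over the other alternatives with all animals, the number of genes called was 0 to 513 in knockout against wild type at 12 months (5 as reported). At 2 months it was 0 to 31 (6). In knockout it was 0 to 1530 for 12 against 2 months (2) and 0 to 323 for 8 against 2 months (0). It was 0 to 64 in wild type of 12 against 2 months (11), 0 to 7 for the change with age (0), and 0 to 2 in hemizygous against wild type (0). With an animal left out it reached 2847 in knockout against wild type at 12 months, 556 in knockout of 8 against 2 months and 306 for the change with age, each without non-tumor animal 638, and 1690 in wild type and 1019 in knockout of 12 against 2 months, both without wild-type animal 641. It reached 24 in knockout against wild type at 2 months, without non-tumor animal 934 of 8 months, and 1 in hemizygous against wild type.

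With slide as a block, knockout against wild type at 2 months rested on knockout animal 137 alone. With slide or scan day as a fixed block, animal 641 was the only wild type of 12 months. Some differences changed sign, and the cause was not tested. For knockout against wild type at 2 months these were Slc22a18 with median centring (-0.0052), Grb10 with the mean of all probes (-0.23) and with slide as a block (-0.10), Peg3 (-1.43) and Plagl1 (-0.45) with slide as a block, and Cdkn1c with Xist as a covariate (0.23). At 12 months they were Slc22a18 (-0.50) and Grb10 (-0.25) with the mean of all probes, and Cdkn1c with scan day as a block (-0.38). Peg3 in wild type of 12 against 2 months was -0.81 with slide as a block. The change of the Phlda2 difference with age was 0.33 with quantile normalisation, 0.23 with median centring, 0.0946 with slide as a random block and 0.25 with scan day as a block. In tumor against non-tumor tissue the series matrix gave 0.0357 for Slc22a18 and 0.01 for Peg3, and the mean of all probes gave 0.14 for Peg3. With 1 animal left out, ranges that crossed 0 were -0.31 to 0.18 (Cdkn1c), -0.21 to 0.32 (Slc22a18) and -0.58 to 3.47 (Plagl1) at 2 months, -0.20 to 0.63 (Cdkn1c), -0.0834 to 0.106 (Slc22a18) and -1.13 to 0.41 (Plagl1) at 12 months, -0.33 to 0.57 for the change of Phlda2 with age, and -0.51 to 0.38 for Peg3 in tumors. Signal over background limits Peg3 and Plagl1.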

Other observations

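Phlda2 was set against the other 6 members over the 7 tumors and over the 7 non-tumor samples, 12 relations in all, after the values had been seen. In tumors Cdkn1c ran against Phlda2 (Pearson r = -0.85, exact permutation p = 0.0274, adjusted over the 12 relations 0.202; Spearman rho = -0.82, exact permutation p = 0.0341, adjusted 0.398). Without the 2 tumors farthest from the median in Cdkn1c the r was -0.90. Samples left out in this way were chosen by the gene set against Phlda2, not by Phlda2, here and below. Grb10 ran with Phlda2 (r = 0.80, exact permutation p = 0.0337, adjusted 0.202; rho = 0.75, exact permutation p = 0.0663, adjusted 0.398; r = 0.90 without the 2 farthest). Neither relation passed after adjustment. In non-tumor tissue of the same animals r was -0.22 for Cdkn1c (exact permutation p = 0.660) and -0.89 without the 2 samples farthest from the median, close to the value in tumors. For Grb10 it was 0.02 (exact permutation p = 0.963) and 0.30 without the 2 farthest, and the difference between the tissues was not tested. The tumors of 1347, 1109 and 702, highest in Phlda2, had Cdkn1c levels of -0.89, -1.53 and -1.23, the lowest of the 7, and Grb10 levels of 0.29, -0.24 and -0.35, the highest of the 7. The tumors were not analysed within slides, since no slide held more than 2 of them.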
